A study of Mus musculus with 22 samples.

Results

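The livers of 10 male *Adipoq* KO mice, 5 fed *ad libitum* (AL) and 5 under caloric restriction (CR), were compared gene by gene. They are 10 of the 22 KO livers in the series and were taken by sex and diet from the sample labels. The 12 KO females, 6 per diet, entered the same model, which estimates a shared spread. They are otherwise used to ask whether a response differed between the sexes and to place the CR males between the sexes. All mice carry a global deletion of *Adipoq* exon 3, made on a C57BL/6N background, so the control diet group also lacks adiponectin and no value here compares KO with WT. AL males ate the D12450B diet freely. CR males received 70% of the average AL intake as a single morning ration of a different formulation (D10012703) from 9 to 13 weeks of age, so ration size, meal time, and formulation cannot be told apart. The mice were housed singly, livers were taken after a fast given as 8 h in the labels and as a wider range in the methods, and each library is 1 mouse.

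The mouse number on the label of the fifth CR male has no column in the table. A column that matches no label, but whose number the study's supplementary data list as a KO CR male, was used in its place. It is called the unnumbered CR male below, and gene tests, list counts, and the place of CR males between the sexes were also computed without it. The principal components and the ranks of single livers were computed only with it included.

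When food is short, the liver releases glucose, oxidizes fatty acids, makes ketone bodies, and disposes of amino nitrogen. It is also sexually dimorphic, because males and females secrete growth hormone in different temporal patterns and hepatocytes read those patterns through STAT5 and its targets. Many hepatic genes follow the circadian clock as well, in which the activators BMAL1 (*Arntl*) and CLOCK drive the *Per*, *Cry*, and *Nr1d* repressors, and meal time is a strong timing cue for the liver clock.

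Between 38067493 and 39845160 reads per male liver were counted on genes. *Adipoq* had at most 1 read in any of them and 0 in 8. The summed hepatocyte markers (10 genes) held 4222000 to 7697100 normalized counts. The sums of 15 marker lists were compared by two-sided exact permutation tests. With 5 against 5 livers the smallest unadjusted p is 0.00794, so a single list could reach no adjusted p below 0.119 over the 15, and the absence of a passing list says nothing about whether the lists differed. Periportal hepatocyte markers were at that smallest p and did not overlap, with sums of 233008 to 416120 in AL and 418054 to 512448 in CR. That sum is weighted to abundant members. *Ass1* averaged 143200 in AL and 213300 in CR, and *Pck1* 90560 and 122300, and neither passed as a single gene. Of the 11 markers 3 rose and 1, *Cyp2f2*, fell (36.4% called, beside 12.4% of all genes). The median log2 fold change of the 11 was 0.56, against 0.02 over all genes. RNA of exocrine pancreas was uneven: its markers summed to 309209 in CR male 1 and 68462 in AL male 3, against 215 to 9708 in the other 8, so those 2 livers carry pancreas transcripts. In whole tissue, fewer cells of a type and less RNA per cell cannot be told apart.

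Of 15957 genes tested, 1986 differed between CR and AL in KO males at a limma adjusted p under 0.05, 857 higher and 1129 lower, or 12.4% of genes (5.37% higher and 7.08% lower). Without the unnumbered male, 1599 genes (10%) passed, 713 higher (4.47%) and 886 lower (5.55%), and 1508 of the first 1986 were called again in the same direction. In 3.97% of genes all CR males lay above all AL males, and in 5.3% all lay below (5.07% and 6.09% without the unnumbered male). Log2 fold changes below are the CR mean minus the AL mean of log2(normalized count + 1), ± SE. The median over all tested genes was 0.02. Counts of called genes in the lists below are to be read beside the 5.37% and 7.08% of all genes. Values for single livers are normalized counts in the order AL males 1 to 5, then CR males 1 to 4, then the unnumbered male. The first principal component of the 500 most variable genes held 45.2% of the variance and placed all CR males (11.7 to 41.3) apart from all AL males (-34.6 to -19.0). Among its 50 largest loadings, 18 were major urinary protein genes and 12 belonged to the list of male-biased genes. The second component held 28.3%, and 18 of its 50 largest loadings were pancreas markers.

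Male-biased liver transcripts fell in KO males under CR, and their 2 lists had the lowest medians of all lists examined. The *Mup* cluster on chromosome 4 encodes the pheromone-carrying urinary proteins of male mice and also holds pseudogenes such as *Mup-ps1*. All 20 of its tested genes were lower in CR, with log2 fold changes from -8.94 to -2.22 and a median of -5.04. In AL males, reads on these genes made up 4.44% to 14.0% of all reads, and in CR males 0.292% to 1.46%. *Mup20*, which encodes the male pheromone darcin, had 623748, 423836, 639945, 217745, and 424371 normalized counts in AL males. It had 6924, 21126, 17472, and 5652 in the numbered CR males and 17045 in the unnumbered one. The groups did not overlap, and *Mup20* fell by a factor of 36.3 (log2 fold change -5.18 ± 0.44, limma adjusted p = 3.65e-07, and 1.48e-06 without the unnumbered male). *Mup17* had 49277, 31460.2, 105749, 11324, and 108579.9 in AL and 273, 425, 33.8, 27.6, and 60.7 in CR (-8.94 ± 1.07, adjusted p = 2.76e-05). *Mup15*, *Mup12*, *Mup1*, *Mup8*, *Mup19*, *Mup-ps1*, and *Mup9* were also among the 12 lowest fold changes, from -8.71 to -6.63. *Mup3* fell least, from 384200.4 to 802203 in AL to 76952 to 187792 in CR (-2.22 ± 0.33, adjusted p = 9.14e-05). Members of this family share sequence. Of the 100-base stretches of annotated transcripts, 97.3% of those of *Mup15* and 100% of those of *Mup19* also occur in another gene, against 38.8% for *Mup20* and 2.23% for *Mup3*, so the split of reads among the former is uncertain.

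Of the 27 tested genes in the list of male-biased liver genes, 24 fell and none rose (median -2.96), and 23 fell without the unnumbered male. Setting aside the 7 of them that are *Mup* genes, 17 of 20 fell, with a median of -2.25. *Elovl3* (chromosome 19, 46131897-46135694, GRCm38), an elongase of very long chain fatty acids, had 7681, 9693, 15901, 8988, and 10093 normalized counts in AL males and 103, 214, 14.1, 60.9, and 50.3 in CR males. No CR value came near the AL range (-7.31 ± 0.82, limma adjusted p = 1.33e-05). *Cyp4a12a*, an androgen-dependent hydroxylase of arachidonic acid, was at 11744, 11149.8, 13246, 12749, and 11115 in AL and 86.2, 403, 40.3, 30.4, and 184 in CR. The AL values lay within a narrow band, whereas the CR values were spread widely below it (-6.95 ± 0.81, adjusted p = 1.76e-05). Its neighbor *Cyp4a12b* fell by 6.54, and 35.8% of the stretches of *Cyp4a12a* occur in both genes.

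*Moxd1*, a relative of dopamine beta-hydroxylase, had 713, 39.6, 706, 169, and 1369 in AL males and 6.78, 0, 0, 1.9, and 1.05 in CR males, so its transcript was nearly lost (-7.32 ± 0.71, adjusted p = 5.12e-07). *Pitx3*, a homeobox factor, went from 60.3 to 246 to 0 to 7.52 (-5.96 ± 0.54). At such low counts the fold depends on the pseudocount of 1. *Pitx3* (chromosome 19, 46135685-46148326, minus strand) also overlaps the end of *Elovl3*, which lies on the plus strand. Whether reads of *Elovl3* were counted on *Pitx3* was not tested. The steroid enzymes *Hsd3b5* (-6.09 ± 1.01), *Cyp7b1* (-2.26 ± 0.32), and *Cyp2d9* (-2.25 ± 0.43) fell without overlap, as did the organic anion transporter *Slco1a1* (-4.09 ± 0.94). *Bcl6*, a repressor that keeps female genes low in male liver, did not follow them. It had 577, 2415, 3192, 677, and 198 in AL and 1225, 2202, 1978, 1502, and 354 in CR, all CR values inside the AL range (0.45, 95% interval -0.83 to 1.72, adjusted p = 0.694).

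Female-biased transcripts moved the opposite way. Of 32 tested, 18 rose and 1 fell (*Adam11*), with a median of 1.63, and 17 rose and none fell without the unnumbered male. The highest was *Cyp2b9* (chromosome 7, 26173411-26210661), a female-predominant cytochrome P450. Its normalized counts were 14.9, 131, 67.2, 66, and 190.4 in AL males and 11758, 5466, 10041, 12371, and 7825 in CR males. The lowest CR male was far above the highest AL male, and the AL females had 10951 to 15918 (7.0 ± 0.42, limma adjusted p = 5.05e-09). *Cux2*, a transcription factor restricted to female liver, was at 29.8, 16.7, 15.7, 13.4, and 60.3 in AL males and 933, 228, 2047, 2168, and 405 in CR males (5.10 ± 0.57, adjusted p = 1.3e-05). *Slc22a27* (4.78), *Slc22a26* (4.77), *Fmo2* (3.75), and *Cyp2a4* (3.22), which encode anion transporters and oxidases, were among the 12 highest fold changes. The nuclear cofactor *Trim24* rose by 1.34 ± 0.19. Other female-biased genes stayed low: 4 of the 32 had a mean under 10 in both male groups.

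In the plot of sex-biased genes by liver, CR males lay near or inside the female range for several of them. Of 24 male-biased genes whose AL males all exceeded the AL females (2.12% of all genes do), the mean of the CR males was nearer to the AL females for 23 and below theirs for 10. Of 26 female-biased genes whose AL males all lay below the AL females (2.27% of all genes), the CR male mean was nearer to the AL females for 15 and above theirs for 4. Without the unnumbered male the counts nearer to the females were 23 and 15, and those past them 10 and 3. The *Mup* list, which shares genes with the male-biased list, went further. Of its 15 genes set apart in the same way, the CR male mean was nearer to the AL females for 15 and below theirs for 14, with or without that male. These lists were chosen for a difference between the sexes, so the gap between AL males and females is no finding, and the place of the CR males in it is given as a description.

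**Figure D1:**
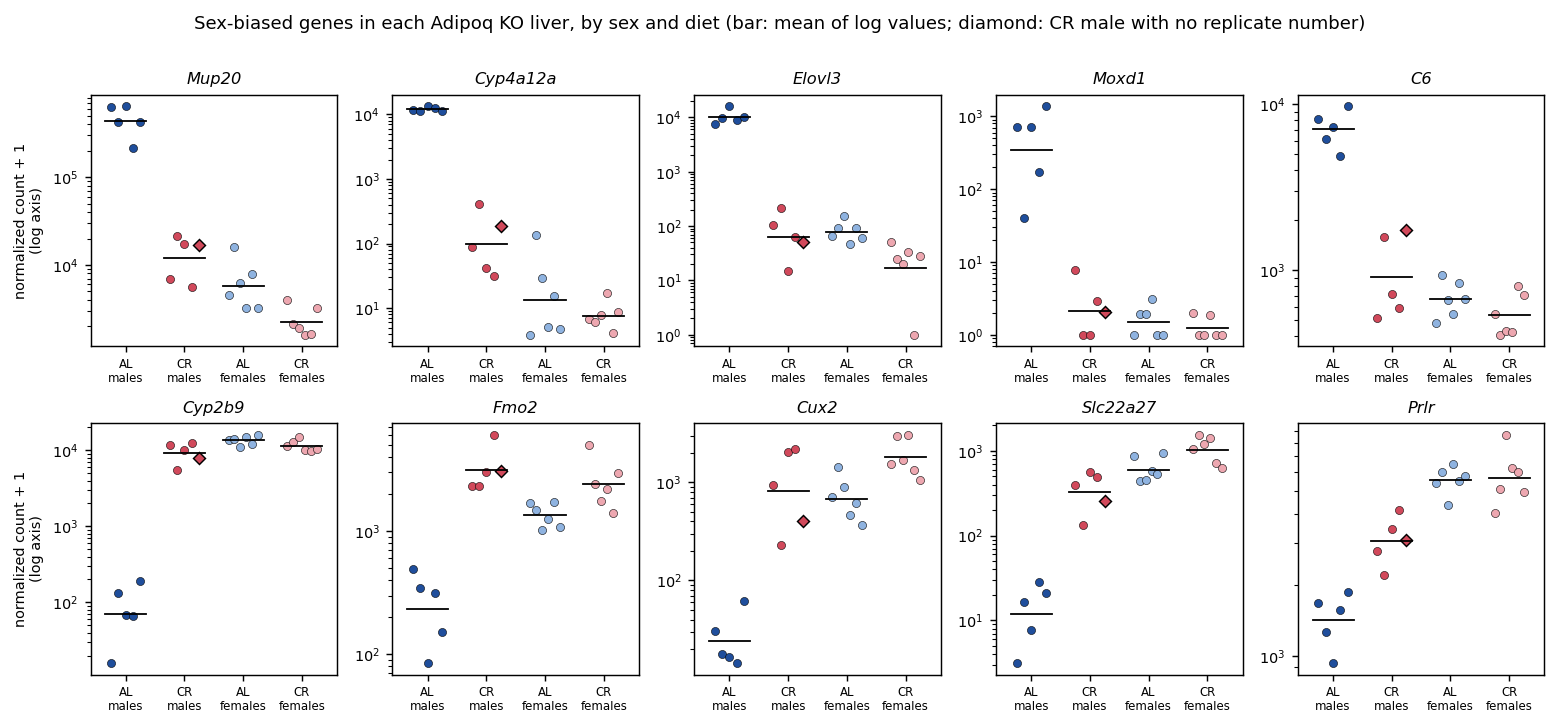
Normalized count plus 1 (log axis) of 10 genes in each KO liver, by sex and diet. Points are livers, the diamond is the unnumbered CR male, and bars are means of the log values. *Mup20*, *Cyp4a12a*, *Elovl3*, *Moxd1*, and *C6* are lower in all CR males than in any AL male, and *Cyp2b9*, *Fmo2*, *Cux2*, *Slc22a27*, and *Prlr* are higher.

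The shift was not equal across the CR males. CR male 2 had the highest value of the 5 CR males for 22 of the 27 male-biased genes and for 19 of the 20 *Mup* genes, and the lowest for 17 of the 32 female-biased genes. Its *Mup15* value was 1529, 4337, 306, and 198 in the order of the numbered CR males, in which it is the second. CR male 4 had the lowest value for 14 male-biased and 19 *Mup* genes. Among AL males, AL male 4 was lowest for all 20 *Mup* genes and for 15 of the 27 male-biased genes. The genes of a list share a liver and often a regulator, so these counts describe the livers and are not replicates.

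Of 16 genes of the growth hormone and IGF axis, 1 rose and none fell, against 5.37% of all genes that rose and 7.08% that fell, a count too small to set the axis apart. The gene that rose was *Prlr*, the prolactin receptor, which is also female-biased, at 1669, 1260.5, 931, 1558, and 1865 in AL and 2785, 2192, 3456, 4133, and 3094 in CR (1.11 ± 0.20, limma adjusted p = 0.000459). *Igf1*, the endocrine effector of growth hormone, had 11943, 12591, 13714, 13715, and 18188 in AL and 12479, 13372, 13029, 14571, and 14356 in CR, a difference of -0.04 (95% interval -0.33 to 0.26). The receptor *Ghr* (-0.11, -0.37 to 0.14), the IGF carrier subunit *Igfals* (-0.51, -1.0 to -0.02), and the feedback inhibitor *Socs2* (0.60, -0.68 to 1.89) did not pass. *Socs2* varied within AL males from 130.1 to 801.

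Whether the response was particular to males was tested by the interaction of diet and sex. It was called for 76 of 15957 genes (0.476%), 32 higher and 44 lower in males, and for 55 genes (0.345%) without the unnumbered male. At an unadjusted p under 0.05 there were 2235. Of the 20 *Mup* genes 2 were among the 76, of the 27 male-biased genes 10, and of the 32 female-biased genes 11. Among genes averaging 100 or more in 1 of the 4 groups, the 5 highest values included *Cyp2b9* (7.24 ± 0.58, adjusted p = 8.97e-07), *Slc22a26*, *Slc22a27*, and *Cux2*. In females, *Cyp2b9* had 10951 to 15918 in AL and 9703 to 14984 in CR (-0.24, adjusted p = 0.728). The 5 lowest were *Moxd1* (-7.04 ± 0.96, adjusted p = 0.000523), *Cyp4a12a*, *Cyp4a12b*, *Pitx3*, and *Elovl3*. Some of these calls depend on the test or on single livers. With edgeR on reads the adjusted p was 0.484 for *Moxd1*, 0.179 for *Cyp4a12a*, 0.166 for *Cyp4a12b*, and 0.595 for *Pitx3*. *Elovl3* lost its call when any 1 of 9 of the 10 males was left out, all but CR male 2 (adjusted p = 0.0555 to 0.09), as well as with a pseudocount of 0.5 (0.101), the replicate block (0.132), and the mouse number covariate (0.0512). *Cux2* lost its call when AL male 1, 2, 3, or 4 or CR male 1, 3, or 4 was left out. Transcripts that are already near 0 in AL females, such as *Moxd1* (0 to 2.08) and *Cyp4a12a* (2.87 to 135), have little room to fall there. Most *Mup* genes fell in both sexes: 17 of 20 were lower in CR females, with a median of -3.11, and the interaction of *Mup17* did not pass (adjusted p = 0.248). None of the genes in the clock, sterol, fatty acid synthesis, amino acid catabolism, and glycogen lists passed the interaction test in limma, which does not show that the sexes responded alike.

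**Figure D2:**
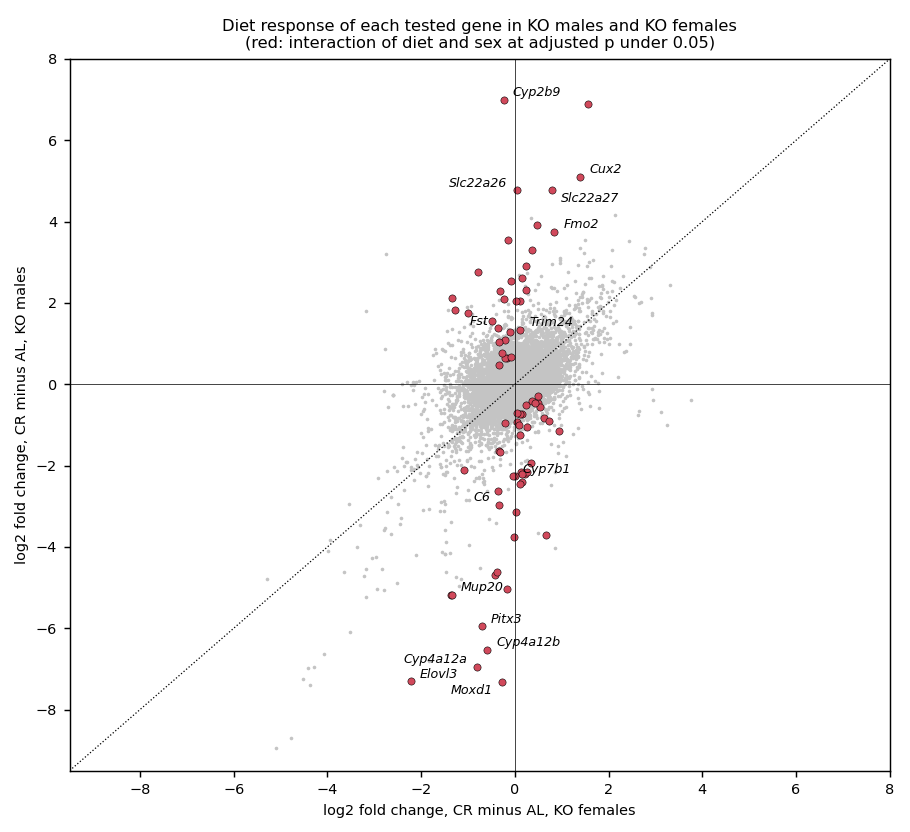
Log2 fold change of CR minus AL in KO females (x axis) and KO males (y axis) for 15957 genes. Red points are the 76 genes with an interaction at an adjusted p under 0.05, and the dotted line marks equal responses. *Cyp2b9* rose by 7.0 in males against -0.24 in females, and *Moxd1* changed by -7.32 against -0.28.

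In the complement and coagulation list 5 of 33 genes were lower and 1 was higher, beside 7.08% and 5.37% of all genes. Of those 5, 4 encode parts of the membrane attack complex. *C6* had 8143, 6159, 7344, 4886, and 9706 in AL and 512, 1592, 717, 594, and 1749.9 in CR (-2.96 ± 0.30, limma adjusted p = 2.81e-06), and its interaction with sex passed (-2.63, adjusted p = 0.00312). *C8a* (-2.28 ± 0.45), *C8b* (-2.12 ± 0.36), and *C9* (-1.45 ± 0.28) also fell. AL females had 482 to 938 for *C6*, 2183 to 5346 for *C8a*, and 1294 to 4231 for *C8b*, below every AL male. For *C9* they had 5122 to 9442 and overlapped the AL males. The fall of these genes is to be read beside that of the male-biased genes. The lectin *Mbl2* rose (0.61 ± 0.15, from 6308 to 8359 to 9318 to 13677). Of 24 acute phase genes 2 fell, a share of 8.33% that is under the 12.4% of all genes called. Among them was *Saa1* (-2.20 ± 0.68, adjusted p = 0.0385, a call that was lost with most single livers left out).

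Sterol synthesis and uptake genes rose in CR males. Of 24 tested, 16 were higher and none lower (median 1.25), and 17 without the unnumbered male. *Idi1*, which makes dimethylallyl pyrophosphate, had 158, 367, 646, 1485, and 439.7 in AL and 4025, 2897, 1709.5, 1502, and 2128 in CR, the highest AL male almost reaching the lowest CR male (2.27 ± 0.59, limma adjusted p = 0.016). *Sqle*, squalene epoxidase, had 75.6, 134, 135, 345, and 154 in AL and 1134, 756, 477, 432, and 351 in CR. It was near the threshold (1.94 ± 0.61, adjusted p = 0.0432) and lost its call when any 1 of 8 of the 10 males was left out.

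Fatty acid synthesis genes rose alongside them, 8 of 16 higher and none lower (median 1.29), and 9 without the unnumbered male. *Fasn*, fatty acid synthase, had 2868, 4683, 4888, 16199, and 7810.3 in AL and 65467, 39745, 38178, 30333, and 27567 in CR (2.66 ± 0.49, limma adjusted p = 0.00109). AL male 4 was the highest of its group and still below every CR male. The elongase *Elovl6* had 790.2, 1137, 1275, 5606, and 2327 in AL and 18659.8, 10728, 11775, 12724, and 11952 in CR (2.91 ± 0.51, adjusted p = 0.000752). *Thrsp* (2.43 ± 0.42) and *Acly*, which makes cytosolic acetyl-CoA (2.13 ± 0.37), rose too. *Srebf1*, the transcription factor for this program, had 1606, 2326, 3498, 2571, and 4763 in AL and 8534, 5964, 7897, 6015, and 3426 in CR. It missed the threshold with all livers (1.14 ± 0.39, adjusted p = 0.0624) and passed without the unnumbered male (1.34, adjusted p = 0.0377). That male had the lowest CR value of *Sqle*, *Fasn*, *Thrsp*, *Acly*, and *Srebf1*.

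These genes were set beside their promoter sequences (RefSeq, GRCm38.p6), read on both strands from 250 bases upstream to the start site. The pentamer CCAAT, the letters of the NF-Y site, was found in the promoters of all 16 sterol genes that have one in the table, of 9 of 14 fatty acid synthesis genes, and of 40.3% of the tested genes with a promoter (33.8% of all promoters). The letters TCACNCCAC, a form of the sterol response element, occurred only in *Hmgcs1* among the 16 (1.33% of genes tested). A match is a description of letters and not of binding. The stretches of *Idi1* (chr13:8885546-8885605, plus strand) and *Fasn* (chr11:120824588-120824657, minus strand) are shown as examples of the 2 lists, 5′ to 3′, with CCAAT or its reverse complement in capitals.
Idi1: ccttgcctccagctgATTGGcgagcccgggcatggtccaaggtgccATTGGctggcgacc
Fasn: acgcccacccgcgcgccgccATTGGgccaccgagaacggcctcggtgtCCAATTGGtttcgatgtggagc

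Of 32 genes of fatty acid oxidation, 2 rose and 4 fell (median -0.15), beside 5.37% and 7.08% of all genes. *Acot3*, a peroxisomal acyl-CoA thioesterase, had 456, 463, 152, 1664, and 1345 in AL and 6435, 3397, 7217, 9197, and 5658 in CR (3.36 ± 0.48, limma adjusted p = 0.000103), and its neighbor *Acot4* rose by 1.53 ± 0.22. *Crot*, which hands peroxisomal products to carnitine, fell (-1.51 ± 0.28, adjusted p = 0.000755). It had 10808 to 22420.1 in AL, 3295 to 5477 in the numbered CR males, and 10557 in the unnumbered one. *Cpt2*, the inner mitochondrial carnitine transferase, fell by 0.53 ± 0.12. *Cpt1a*, the rate-limiting outer membrane enzyme, had 9815 to 16840.0 in AL and 8381 to 16879 in CR (-0.01, 95% interval -0.40 to 0.39). *Ppara* (0.37, 0.02 to 0.71) and its target *Cyp4a14* (-0.03, -1.41 to 1.35) did not pass. Of the 6 ketone body genes 2 fell, and 1 without the unnumbered male. *Fgf21*, a fasting hepatokine, had 69.7 to 406 in AL and 73.3 to 139 in CR (-0.49, adjusted p = 0.49).

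**Figure D3:**
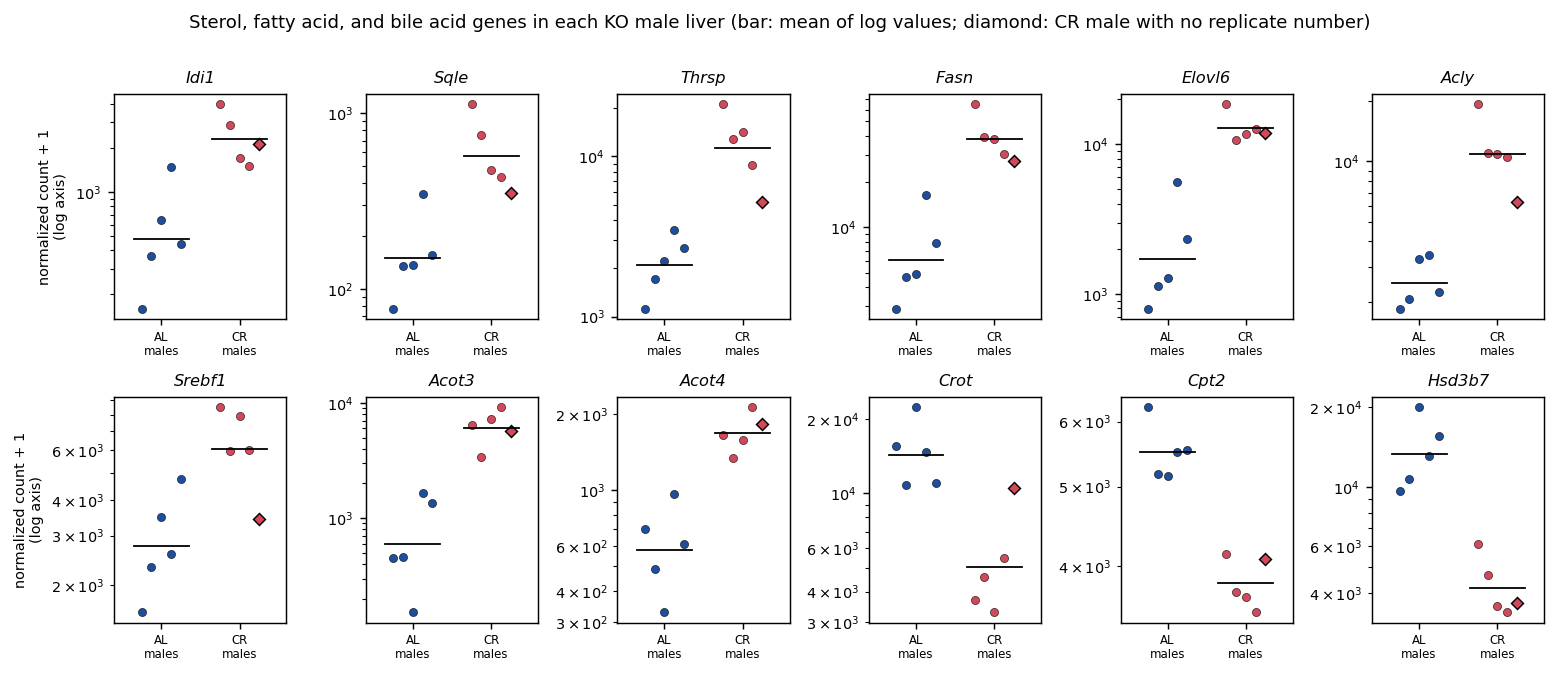
Normalized count plus 1 (log axis, each panel with its own scale) of 12 lipid genes in the 5 AL and 5 CR KO males. Points are livers, the diamond is the unnumbered CR male, and bars are means of the log values. *Idi1*, *Sqle*, *Thrsp*, *Fasn*, *Elovl6*, *Acly*, *Acot3*, and *Acot4* are higher in all CR males than in any AL male, and *Crot*, *Cpt2*, and *Hsd3b7* are lower. The diamond is the CR liver nearest to the AL group for *Sqle*, *Thrsp*, *Fasn*, *Acly*, *Srebf1*, and *Crot*.

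Of 18 bile acid genes 5 were lower and 2 higher, beside 7.08% and 5.37% of all genes. *Cyp8b1*, the sterol 12-alpha-hydroxylase that sets the cholic acid share, had 10303, 5914, 17559.7, 14696, and 22328 in AL and 6792, 5590.2, 989, 2051, and 2515 in CR (-2.16 ± 0.43, limma adjusted p = 0.00188). AL male 2 overlapped the CR range. *Hsd3b7*, which acts in both routes of synthesis, had 9684 to 20009 and 3375 to 6118 without overlap (-1.68 ± 0.21, adjusted p = 1.3e-05), whereas *Akr1d1* rose (0.98 ± 0.16). The rate-limiting *Cyp7a1* ranged widely, 487, 66.6, 376, 1145, and 503 in AL and 718, 782, 438, 842, and 173 in CR (0.47, 95% interval -1.02 to 1.95). Of 41 lipoprotein and triglyceride genes 2 rose and 1 fell, a share of 7.32% that is under the 12.4% of all genes called. *Vldlr*, a lipoprotein receptor normally scarce in liver, went from 23.5 to 70.4 to 141 to 357 (2.38 ± 0.28, adjusted p = 8.44e-06). *Agpat2*, an acyltransferase of triglyceride synthesis, fell (-0.98 ± 0.21). Of 27 ceramide genes (18.5% called) 4 rose, among them *Cers6*, a C16-ceramide synthase (1.81 ± 0.28), and the sphingomyelinase *Smpd2* fell (-0.69 ± 0.11).

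In the glycolysis, fructose, and glycogen list, 5 of 22 genes rose and 1 fell, beside 5.37% and 7.08% of all genes. *Ppp1r3g*, a glycogen-targeting subunit of protein phosphatase 1, had 283, 102, 26.9, 61.5, and 57.6 in AL and 2525, 1745, 584, 1610.0, and 1270.3 in CR (4.15 ± 0.83, limma adjusted p = 0.00258). *Ppp1r3c*, another subunit of that family, had 2859, 3184, 2127, 1462, and 698 in AL and 299, 352, 375, 401, and 617 in CR. It moved the other way, again without overlap (-2.19 ± 0.39, adjusted p = 0.000856). Liver glycogen synthase *Gys2* rose (1.31 ± 0.26), as did the pyruvate dehydrogenase kinase *Pdk1* (0.96 ± 0.19). *Pklr*, liver pyruvate kinase, missed the threshold (0.96, adjusted p = 0.0936). *Slc2a4*, the insulin-responsive glucose transporter of muscle and fat, had 17, 25, 44.8, 32.1, and 113 in AL and 594, 276, 712, 584, and 237 in CR (3.52 ± 0.53, adjusted p = 0.000173). The summed skeletal muscle markers were 115 to 572 in AL and 122 to 3110 in CR, highest in CR male 1, and adipose markers were 90279 to 190179 and 135839 to 163526. The adipose list includes *Pck1* and *Thrsp*, which are also liver genes. *Pck1* alone held 130801 of the 167003 in AL male 1 and 60398 of the 152388 in AL male 3, so that sum is no clear measure of fat tissue. The part of muscle or fat tissue in the *Slc2a4* value was not tested.

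Of 19 gluconeogenic genes 1 rose and 1 fell, a share near the 12.4% of all genes that were called. *Pck1* had 130801, 140780.3, 60398, 45291, and 75541 in AL and 123513, 119734, 104642, 136377, and 127364 in CR (0.56, 95% interval 0.0 to 1.12). It did not pass with all livers on the deposited scale, but did after quantile normalization (limma adjusted p = 0.00374). *G6pc* had 9931 to 13824 and 11894 to 16319 (0.16, -0.50 to 0.82). The gene that fell was *Gpd1*, cytosolic glycerol-3-phosphate dehydrogenase, with 16169, 17072, 13382, 16466, and 17208 in AL and 4712, 3740.3, 6806, 3084, and 6339 in CR. The groups lay far apart (-1.76 ± 0.23, limma adjusted p = 2.18e-05). *Ppargc1a*, a coactivator of fasting genes, passed narrowly with all livers (1.30 ± 0.42, adjusted p = 0.0467). The call was lost when the unnumbered male (adjusted p = 0.123), AL male 3, 4, or 5, or any numbered CR male was left out, with males alone, with edgeR, and under the replicate block. The unnumbered male had the highest value, 1052, against 464 to 662 in the other CR males.

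Of 62 amino acid catabolism genes, 2 rose and 8 fell (median 0.05), beside 5.37% and 7.08% of all genes, and 4 rose and 7 fell without the unnumbered male. The glycine cleavage genes *Gldc* (4062 to 5679 in AL, 2089.6 to 3393 in CR, -0.97 ± 0.21) and *Amt* (-0.93 ± 0.14, limma adjusted p = 0.000123) fell. *Cbs*, which commits homocysteine to cysteine, fell by 0.88 ± 0.24. The glutaminase *Gls2* rose by 0.71 ± 0.20. *Tat*, tyrosine aminotransferase and a glucocorticoid target, had 93498, 116375, 38328, 21485, and 34552 in AL and 72371, 91936, 69010.5, 69523, and 76006 in CR. AL males 1 and 2 were above every CR male and AL males 3 to 5 below every one (0.59, limma adjusted p = 0.451). The mouse numbers were 172 and 211 for AL males 1 and 2 and 303, 331, and 362 for AL males 3 to 5. The part of mouse number in this split was not tested. Of 8 urea cycle genes, *Arg1* rose (0.45 ± 0.15, adjusted p = 0.0422), while *Cps1* (0.42, adjusted p = 0.202) and *Ass1* (0.60, adjusted p = 0.138) did not pass. The call of *Arg1* was lost when any 1 of 7 males was left out, and after quantile normalization *Cps1* and *Ass1* passed (adjusted p = 0.00274 and 0.000307).

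Methyl-group metabolism held a large change in an abundant transcript. *Bhmt*, which remethylates homocysteine with betaine, had 100510.0, 67631, 87849, 138664, and 127717 in AL and 29820.5, 26371, 7966, 8518, and 8801 in CR. The groups were far apart, and CR males 3 and 4 and the unnumbered male had the lowest values (-2.89 ± 0.47, limma adjusted p = 0.000365). *Mthfd1l*, a mitochondrial formate enzyme, went from 10.4 to 20.2 to 46.1 to 114 (2.52 ± 0.31, adjusted p = 1.3e-05). In the one-carbon list as a whole 2 of 23 rose and 1 fell, a share of 13.0% that is near the 12.4% of all genes called.

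**Figure D4:**
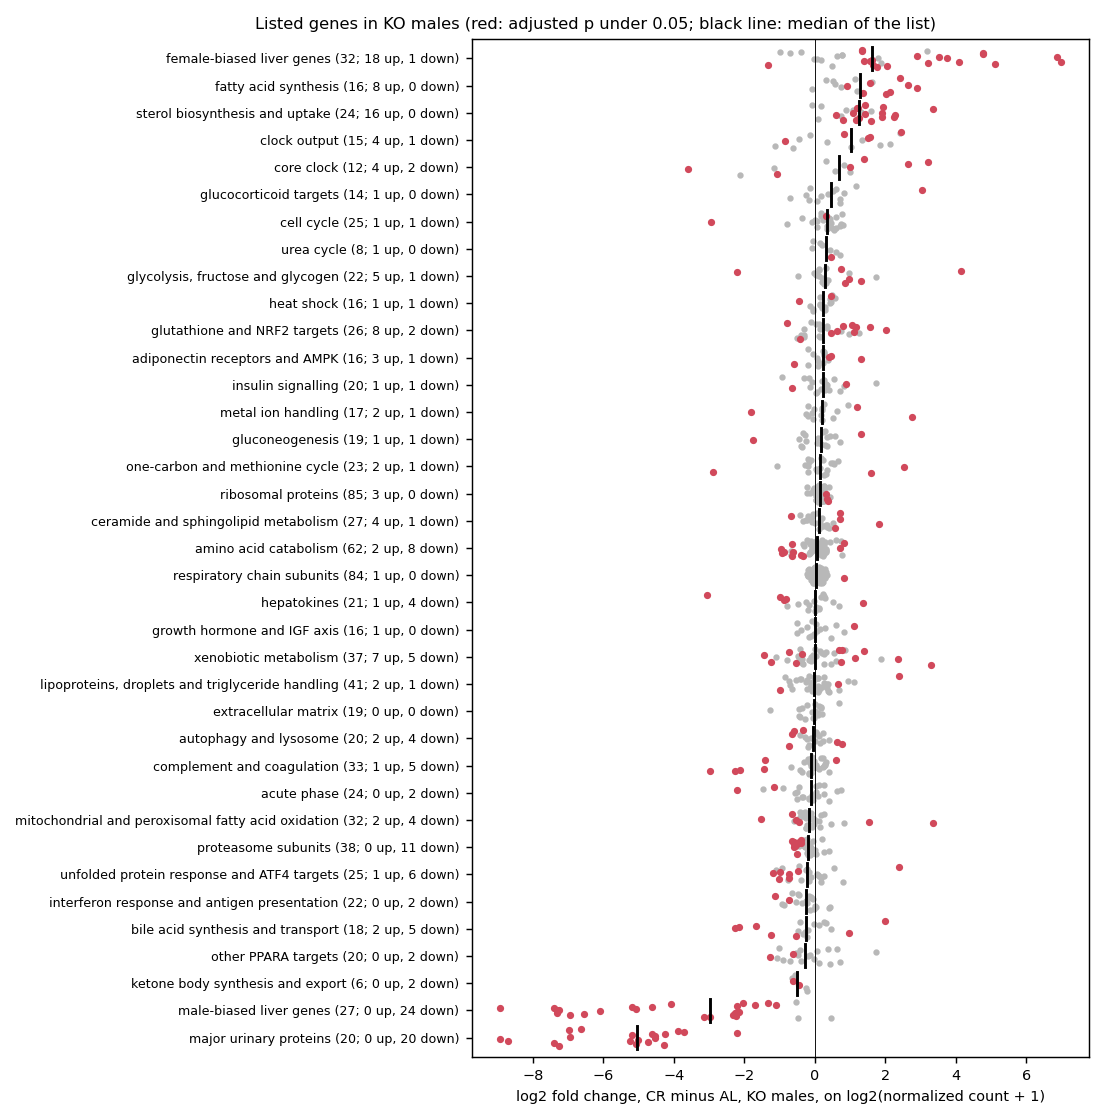
Log2 fold change of each listed gene in KO males, CR minus AL, with lists ordered by their median (black line). Red points passed an adjusted p under 0.05, and labels give the genes tested and called in each direction. The *Mup* list (median -5.04) and the male-biased list (-2.96) lie at the bottom, and the female-biased (1.63), fatty acid synthesis (1.29), and sterol (1.25) lists at the top.

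The clock genes separated the livers in more than 1 way. Of 12 core clock genes 4 rose and 2 fell (median 0.69), and 3 rose and 3 fell without the unnumbered male. Of 15 clock outputs, 4 rose and 1 fell. The shares called were 50% and 33.3%, beside 12.4% of all genes. Among the repressors, *Per2* had 563, 282, 81.7, 116, and 131 in AL and 1013, 1224, 941, 1443, and 1214 in CR (2.66 ± 0.44, limma adjusted p = 0.000413). *Per3* had 404, 251.9, 33.6, 74.9, and 165 and 1669, 1419, 1384, 1350.2, and 665. All CR males exceeded all AL males for both, and *Per3* varied widely within AL (3.20 ± 0.65, adjusted p = 0.00257). *Wee1*, a cell cycle kinase under clock control, rose (2.44 ± 0.43), as did *Rgs16*, a G protein regulator (1.51 ± 0.37).

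On the activator side, *Npas2* had 18.1, 27.1, 273, 361, and 87.1 in AL and 8.72, 2.82, 8.44, 4.76, and 8.38 in CR (-3.58 ± 0.78, adjusted p = 0.00416). *Arntl* had 127, 199.8, 569.8, 562, and 151 in AL, 25.2, 37.6, 28.1, and 101 in the numbered CR males, and 261 in the unnumbered one. With that male the difference missed the threshold (-2.13 ± 0.76, adjusted p = 0.0751), and without it *Arntl* fell (-2.66, adjusted p = 0.0263). *Clock* had 233 to 429 in the numbered CR males and 911 in the unnumbered one, inside the AL range of 418 to 1153 (-1.07, adjusted p = 0.0463, and -1.37, adjusted p = 0.00769, without it). *Cdkn1a*, the p21 cell cycle inhibitor, belongs to the cell cycle list and not to the clock lists. Of the 25 cell cycle genes 1 rose and 1 fell (8% called, beside 12.4% of all genes). *Cdkn1a* had 945, 2098, 1216, 3238, and 302 in AL, 102, 141, 59.1, and 104 in the numbered CR males, and 945 in the other (-2.95 ± 0.87, limma adjusted p = 0.0327). The calls of *Clock* and *Cdkn1a* were lost with edgeR (adjusted p = 0.0808 and 0.104) and in limma with males alone (0.0928 and 0.0712). Both were also lost when AL male 2, 3, or 4 or any numbered CR male was left out. *Clock* lost its call without AL male 1 as well, and with TMM scaling (0.0504) and quantile normalization (0.0521). *Leo1* also fell (-0.85 ± 0.23).

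*Dbp*, a PAR bZIP output factor with a steep daily rhythm, had 2574, 1531, 70.5, 60.6, and 2255 in AL and 5799, 3607, 3484, 1664, and 514 in CR (2.13 ± 1.15, adjusted p = 0.254). *Ciart* had 956, 603, 13.4, 12.5, and 87.1 and 619.8, 601, 568, 243, and 113. For both, AL males 3 and 4 were the lowest of all 10, and the unnumbered male was the lowest CR male. *Per1* had 1838, 2174, 709.7, 595, and 685 in AL and 1617, 1761, 1873, 2004, and 1833 in CR (0.82, adjusted p = 0.0911), with AL male 1 within the CR range, AL male 2 above it, and AL males 3 to 5 below it. *Nr1d1* had 476 to 6599 in AL and 317 to 2831 in CR and did not pass (-1.15, adjusted p = 0.308), while *Nr1d2* did (1.0, adjusted p = 0.0403, and 0.0564 without the unnumbered male). *Tef* rose (4114, 3184, 772, 850.3, and 1357 in AL, 5332, 4795, 5641, 4797, and 3812 in CR, 1.56 ± 0.42, adjusted p = 0.0179), and *Cry1* (1.01, adjusted p = 0.0831), *Hlf* (0.33, adjusted p = 0.145), and *Nfil3* (-0.45, adjusted p = 0.495) did not pass. The hour at which each liver was collected is not given in the sources used here, and its part in these values was not tested.

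**Figure D5:**
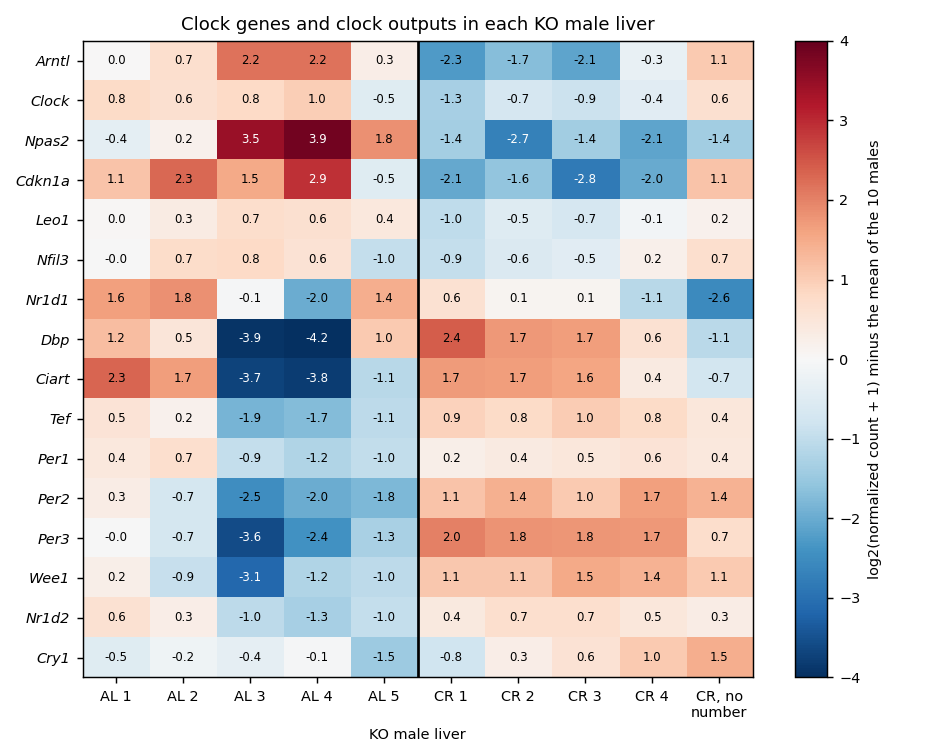
Log2(normalized count + 1) of 16 genes in each KO male liver, as the difference from the mean of the 10 males, with AL livers left of the line and CR livers right of it. All are clock or clock-output genes except the cell cycle gene *Cdkn1a*. AL males 3 and 4 have the highest *Arntl* and *Npas2* and the lowest *Dbp* and *Ciart*. The unnumbered CR male differs from the other CR males in *Arntl*, *Clock*, *Cdkn1a*, and *Nr1d1*.

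The promoters of *Per3*, *Tef*, and *Leo1* are printed because their genes moved with the clock lists and hold letters of clock elements upstream of the start. The D-box TTANGTAA occurred in 1 of 10 core clock genes with a promoter, *Per3*, which holds it at 205 and 158 bases upstream, against 1.84% of tested genes. The E-box CACGTG occurred in 2 of 10 core clock genes (*Cry1* and *Per1*) and 5 of 13 output genes, *Tef* among them, against 9.49%. The letters TAGGTCA, a core of the REV-ERB element, occurred in *Leo1* and *Nfil3* among the outputs, against 2.30%. Both strands were read, and capitals mark the match: *Per3* is chr4:151044806-151044885 (minus strand), *Tef* chr15:81802523-81802572 (plus), and *Leo1* chr9:75441444-75441493 (plus).
Per3: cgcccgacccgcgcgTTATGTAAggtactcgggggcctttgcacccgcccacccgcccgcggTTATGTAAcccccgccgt
Tef: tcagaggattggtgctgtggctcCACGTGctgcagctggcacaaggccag
Leo1: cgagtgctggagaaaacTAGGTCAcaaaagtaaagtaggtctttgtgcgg

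Detoxification genes moved in both directions. Of 37 xenobiotic genes 7 rose and 5 fell (32.4% called, beside 12.4% of all genes), and 8 rose and 2 fell without the unnumbered male. *Abcb1a*, a P-glycoprotein efflux pump, had 55.4, 42.7, 26.9, 56.2, and 33.5 in AL and 357, 459, 333, 641, and 361 in CR, with no overlap (3.31 ± 0.24, limma adjusted p = 5.05e-09). The P450 *Cyp2a5* (2.36 ± 0.48) and the P450 reductase *Por* (1.40 ± 0.36) rose, and *Cyp2f2* fell (-1.43 ± 0.27). Of 26 glutathione and NRF2 genes 8 rose and 2 fell (38.5% called), and 10 rose and 1 fell without that male. *Gstm3* (493 to 797 in AL, 1226 to 5380.5 in CR, 2.02 ± 0.41), *Gstt3* (1.56 ± 0.25), and *Gstt2* (1.18 ± 0.20) encode glutathione transferases, and *Nqo1* is a quinone reductase (1.06 ± 0.20). Catalase, *Cat*, fell (72021 to 92399 to 57848 to 70157, -0.41 ± 0.12, adjusted p = 0.0224, 0.0581 without the unnumbered male, and 0.881 after quantile normalization), as did the sulfiredoxin *Srxn1* (-0.80 ± 0.20).

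Of 38 proteasome subunits, 11 fell and none rose (median -0.20), against 7.08% of all genes that fell, and 10 fell without the unnumbered male. The other 27 did not pass. The changes were small: *Psmd4* (2642, 2703, 2638, 3206, and 3585 in AL, 2088, 1921, 2181, 1699, and 1522 in CR) fell by 0.65 ± 0.16 without overlap, and *Psmd2* (-0.60 ± 0.10, limma adjusted p = 0.000204) and *Psmd11* (-0.60 ± 0.11) fell likewise. Of 25 unfolded protein response genes, 6 fell and 1, *Vldlr*, rose, but 2 fell and 2 rose without the unnumbered male. The chaperone *Hspa5* (BiP) had 16715, 16760.0, 17025, 6059, and 10097 in AL and 7206, 7434, 9368, 7511, and 6214 in CR, AL male 4 being as low as the CR males (-0.73 ± 0.22, adjusted p = 0.0343, and 0.0856 without that male). *Hyou1* (-1.20 ± 0.27) and *Creld2* (-1.03 ± 0.31, adjusted p = 0.0314, and 0.0748 without it) showed the same spread within AL. Of 16 heat shock genes 1 rose and 1 fell (median 0.24), a share of 12.5% that is near the 12.4% of all genes called. Of 85 ribosomal protein genes 3 rose, and none without the unnumbered male, and of 84 respiratory chain genes 1 rose, beside 5.37% of all genes. None of the 19 extracellular matrix genes passed in males.

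The receptors through which adiponectin acts were little changed in these mice that lack it. *Adipor1* had 3203 to 4259 in AL and 3644 to 4189 in CR (0.10, 95% interval -0.13 to 0.33), and *Adipor2* had 9721 to 14667 and 10154 to 11239 (-0.19, -0.46 to 0.08). In the list of receptors and AMPK genes, 3 of 16 rose and 1 fell (25% called, beside 12.4% of all genes), and 1 rose and 1 fell without the unnumbered male. The AMPK subunits *Prkaa2* (0.41 ± 0.13, limma adjusted p = 0.0363, and 0.0918 without it) and *Prkab1* (0.45 ± 0.14) rose slightly. The receptor adaptor *Appl1* fell (-0.58 ± 0.17). In insulin signaling, the docking protein *Irs2* (0.87 ± 0.25, adjusted p = 0.0261, and 0.0613 without that male) rose and the inhibitor *Grb14* (-0.66 ± 0.14) fell, of 20 genes. That share of 10% is under the share of all genes called. Of 21 secreted hepatic factors 1 rose and 4 fell (23.8% called), and 1 rose and 2 fell without the unnumbered male. *Serpina12* (vaspin) had 793, 939.9, 1899.6, 694, and 2531 in AL and 67.8, 283, 153, 118, and 171 in CR (-3.06 ± 0.47, adjusted p = 0.000223). The activin subunits *Inhbc* (-0.88 ± 0.21) and *Inhbe* (-0.82 ± 0.26, adjusted p = 0.0428, and 0.108 without that male) fell, whereas the activin-binding *Fst* rose (41.5 to 122 to 144 to 296, 1.38 ± 0.28). The rise of *Fst* differed from females (1.74, adjusted p = 0.0327), a call that was lost without the unnumbered male (0.0702), AL male 1 or 4, or CR male 1 or 3, and under quantile normalization, the replicate block, and the mouse number covariate.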

How the data were processed

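Liver RNA of 22 *Adipoq* KO mice, 10 of them male, had been sequenced with 1 library per mouse. According to the study's methods and the labels, the authors trimmed reads with Trim Galore, aligned them to mm10 with STAR 2.7.10a, counted them on UCSC gene models with featureCounts (Subread 1.5.2), and normalized with DESeq2 1.44.0. The deposited signal is a count per gene divided by 1 size factor per liver, for 17107 gene symbols. Whether strand was used, and how reads matching several genes were treated, is not given in the sources used here. Of 44 value columns 22 were used, 21 by mouse number and 1 for the CR male whose number has no column, and the other 22 were left out as matching no label. Dividing by the smallest value above 0 of each used column returned whole reads for 100% of values (within 1e-06). Male libraries held 38067493 to 39845160 reads.

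Log2(normalized count + 1) was fitted with limma 3.58.1 (eBayes, trend and robust, R 4.3.3) for the 4 groups of sex and diet, over 15957 genes with at least 10 in at least 5 livers. P-values were adjusted over all of these (Benjamini-Hochberg) and called under 0.05. Marker sums were compared by two-sided exact permutation tests, adjusted over 15 lists. Litters are not given in the sources used here. Named genes were the 12 highest and 12 lowest called fold changes (mean of at least 100, no overlap), the anchors and the 3 highest and 3 lowest called members of each list, and the 5 highest and 5 lowest interactions. This rule gave 228 genes, and 127 of them were carried through every alternative. Livers, lists, and rule were chosen with earlier results of these data known, and lists carry no test. Alternatives were other pseudocounts, filters and scalings, a fit of males alone, edgeR 4.0.16 and DESeq2 1.42.0 on the recovered reads, a replicate block, a covariate for mouse number range, the calling rule of the study, and the omission of each male. The place of CR males between the sexes and the shares without overlap were recomputed without the unnumbered male, a choice made after seeing the data. The fits were tested on simulated data. Coordinates and shared stretches come from GENCODE vM21 (GRCm38), and promoters from RefSeq. Python 3.11.15, pandas 2.3.3, and scipy 1.17.1 were used. Results for some genes are not reported here.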

Additional observations from a re-analysis of the deposited data

Results flagged for a closer look

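Among 288 groups of 5 values searched, 26 held a liver far from the other 4. The rule marks about 1 group in 20 by chance if values are normal and independent. Counts are skewed and genes share livers, so the 26 cannot be set against that rate. In AL male 5 the 10 genes with most reads took 26.0% of them (others 23.0% to 23.8%), the B cell marker sum was 5235 (1296 to 1882), *Igf1* was 18190.0 (the others under 13800), *Igfals* 5999, and *Smpd2* 1209. In that liver 1 read stood for 1.34 normalized counts, against 0.891 to 1.12 in the other AL males. Its recovered reads of *Igf1* (13567) and *Smpd2* (902) were below those of AL male 4 (15387 and 1056), while its *Igfals* reads (4475) were still the highest in AL. AL male 3 stood apart in pancreas markers (68460.0) and *Gpd1* (13380.0), AL male 4 in small intestine markers (91700.0), and AL male 1 in *Irs2* (1640.0). CR male 2 was far above the other CR males for *Mup12* (2016), *Mup1* (6070.0), *Mup8* (6357), *Mup19* (9113), *Mup-ps1* (366.8), *Mup9* (6972), *Cyp2d9* (18550.0), *Pitx3* (7.524), *Cyp2f2* (29920.0), and B cell markers (6219). CR male 1 stood apart in pancreas markers (309200.0), *Moxd1* (6.779), and *Elovl6* (18660.0), CR male 3 in *Hyou1* (1753), and CR male 4 in *Fmo2* (6021). The unnumbered CR male had 911.1 for *Clock* and 944.6 for *Cdkn1a*.

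The response to CR differed between the sexes for 76 genes in limma. The male minus the female log2 fold change was -3.83 for *Mup20*, -5.09 for *Elovl3*, -7.04 for *Moxd1*, -6.13 for *Cyp4a12a*, -5.95 for *Cyp4a12b*, -2.22 for *Cyp7b1*, -5.25 for *Pitx3*, and -2.63 for *C6*. It was 7.24 for *Cyp2b9*, 3.71 for *Cux2*, 4.0 for *Slc22a27*, 4.73 for *Slc22a26*, 2.91 for *Fmo2*, 1.22 for *Trim24*, and 1.74 for *Fst*. The call of *Trim24* was lost without AL male 3 or 5 or CR male 1, 3, or 4 (adjusted p = 0.0503 to 0.0761), and those of *Elovl3*, *Cux2*, and *Fst* were also lost with several single males left out.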

How the results depend on the processing

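Of the 127 genes followed, 100 were called in males, and 79 of these kept call and direction under all 22 alternatives. The other 21 lost the call at least once: *Adam11*, *Appl1*, *Arg1*, *Cat*, *Cdkn1a*, *Clock*, *Creld2*, *Gls2*, *Hspa5*, *Idi1*, *Inhbe*, *Irs2*, *Nr1d2*, *Ppargc1a*, *Prkaa2*, *Prkab1*, *Rgs16*, *Saa1*, *Sqle*, *Srxn1*, and *Tef*. Apart from *Idi1*, *Rgs16*, and *Srxn1*, each of them lost it with at least 1 male left out. Where the report gives a value without the unnumbered male for a lost call, leaving out other single males ended that call too. Of the 100, 9 lost it without the unnumbered male, 11 with males alone, 9 with edgeR, 1 with DESeq2, and 4 with the mouse number range as a covariate. The count of male calls ranged from 1417 to 2023 with 1 male left out (603 to 916 higher, 814 to 1131 lower), and the lower calls were 749 with males alone. By the study's calling rule there were 4016 (1916 higher, 2100 lower). The interaction count was less stable. It was 249 with DESeq2 (98 higher, 151 lower) and ranged from 38 to 94 with 1 male left out (19 to 47 higher, 19 to 54 lower). It was 38 without CR male 3 and 41 without CR male 4, and the lower calls were 27, 24, and 24 without AL male 1, 3, and 5 and 26 without the unnumbered male.

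Replicate numbers did not pair the males: the correlations of same-numbered deviations were -0.40, -0.09, -0.13, and 0.16. With the number as a replicate block, which drops the unnumbered male, 1383 genes were called in males (616 higher, 767 lower) and 39 in the interaction (18 higher, 21 lower). Of the 100 calls 8 were lost.

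Values that changed sign belonged to genes that were not called. *Igf1* was 0.0619 after quantile normalization, and -0.0897 to 0.062 with 1 male left out. *Cpt1a* was 0.0723 after quantile normalization, 0.0040 with edgeR, 0.0028 with DESeq2, 0.0507 with the block, and -0.12 to 0.16 with 1 male left out. *Cyp4a14* was 0.13 after quantile normalization, and -0.72 to 0.34 with 1 male left out. The same range was -0.10 to 0.90 for *Bcl6* and -0.15 to 0.87 for *Cyp7a1*. The causes were not tested. The median of all genes was 0.0107 to 0.0311 under the other scalings, and -0.0004 with a filter at a minimum of 50 normalized counts. At most 7.52 normalized counts of *Moxd1* and *Pitx3* remained in any CR male, so their folds are limited by depth.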
